A study of Homo sapiens with 9 samples.

Results

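MDA-MB-231 cells that stably express a MEL-18 protein whose phosphorylated threonine T334 is exchanged for alanine (MEL-18 T334A, 3 libraries) were compared with MDA-MB-231 cells that stably express wild-type MEL-18 (MEL-18 WT, 3 libraries). These are all 6 of the MEL-18 libraries among the 9 in the series, and every gene with enough counts was tested, which was 14738 of 26364. The other 3 libraries came from cells carrying the empty pLVX vector and serve here as a reference level. MDA-MB-231 is an established human breast adenocarcinoma line with a mesenchymal character. All 3 lines were made with lentivirus, were grown in serum-containing medium, and keep their own copy of the gene for MEL-18, so each MEL-18 line carries the introduced protein on top of the resident one. The labels describe the 3 libraries of a line as biological replicates, and they do not say whether a line is a pool of infected cells or a clone. Replacing the threonine and deriving a separate line therefore cannot be told apart, and p-values measure the spread between libraries of 1 line.

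MEL-18, encoded by PCGF2, is a RING finger protein of Polycomb repressive complex 1 (PRC1), where it pairs with RING1 or RNF2, the enzymes that attach ubiquitin to histone H2A. PRC1 works beside Polycomb repressive complex 2 (PRC2), which methylates histone H3, and together they keep developmental regulators such as the HOX genes silent. In breast cancer MEL-18 has been studied mainly as a suppressor of tumour growth and of stem-like and mesenchymal behaviour. The close relative BMI1 takes the same place in the complex.

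The exchanged residue lies near the end of the protein. In the GENCODE annotation (GRCh38) the codon of T334 in PCGF2, within a reading frame of 344 codons, is a threonine codon in the last exon, at chr17:38735256-38735258 on the minus strand, and it is shown here in capitals with 4 codons on each side because it is the position that differs between the 2 introduced proteins. The sequence is the reference gene, not the introduced construct, whose altered codon is not given in the sources used here.
PCGF2 at T334: gggcgcaagatgACTgtcaacggcgct

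The 9 libraries held between 31643722 and 37005302 counts assigned to genes. Levels are given as CPM, a gene's counts relative to its library's total, with totals scaled by the trimmed mean of M values (TMM), whose factors lay between 0.979 and 1.017. The first principal component of the tested genes took up 52.3% of the variance and placed WT between the other lines. The vector libraries lay at -13.3 to -11.5, the WT libraries at -2.29 to -0.995 and the T334A libraries at 12.1 to 15.7. The second took up 29.9% and set WT apart from the vector and T334A libraries. Replicates were tight, with a common biological coefficient of variation of 2.57%. The T334A library of replicate 3 stood further from the other 2 of its line (chi-square per degree of freedom 3.64 and 3.98) than any other replicate pair of the series did, and its value lies on the WT side of the other 2 for several of the genes below. Markers of MDA-MB-231 and mesenchymal breast cancer cells summed to 5874 to 6243 CPM over the 9 libraries, and 8 of 8 muscle markers and 7 of 8 leukocyte markers stayed under 1 CPM in every library.

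PCGF2 RNA was high in both MEL-18 lines and close between them. The vector libraries held 22.2, 23.8 and 22.3 CPM, the WT libraries 1292, 1287 and 1279 CPM and the T334A libraries 1419.9, 1451 and 1389 CPM. The 2 MEL-18 lines did not overlap, and T334A lay above WT (log2 fold change 0.14 ± 0.027, adjusted p = 1.48e-04). Here and below a log2 fold change, also written as a value followed by log2, is that of T334A over WT with its SE.

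A gene is called here when edgeR's quasi-likelihood test gave a Benjamini-Hochberg adjusted p below 0.05 over all tested genes. By that rule 6034 genes (40.9%) were called, of which 3090 (21% of those tested) were higher in T334A and 2944 (20%) were lower. Most of these differences were small, since 3993 of the 6034 (66.2%) were of at most 1.2-fold and the median called gene differed by 1.147-fold. A smaller group of 247 genes (1.68% of those tested) was called and changed over 2-fold, 106 higher and 141 lower, and 43 of them changed over 8-fold. The 3 T334A libraries and the 3 WT libraries did not overlap for 7178 genes (48.7%), and 244 of the 247 were among them. Most of the 247 were weakly expressed, and 62 averaged 2 CPM or more in the MEL-18 lines. The plot of level against difference shows this shape, a narrow band of small shifts at all levels with a sparse set of large differences at low and middle levels. When a change of over 1.5-fold was required of the test itself, 187 genes were called, 79 higher and 108 lower. The smaller shifts are therefore described below by group, and the larger ones gene by gene.

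**Figure D1:**
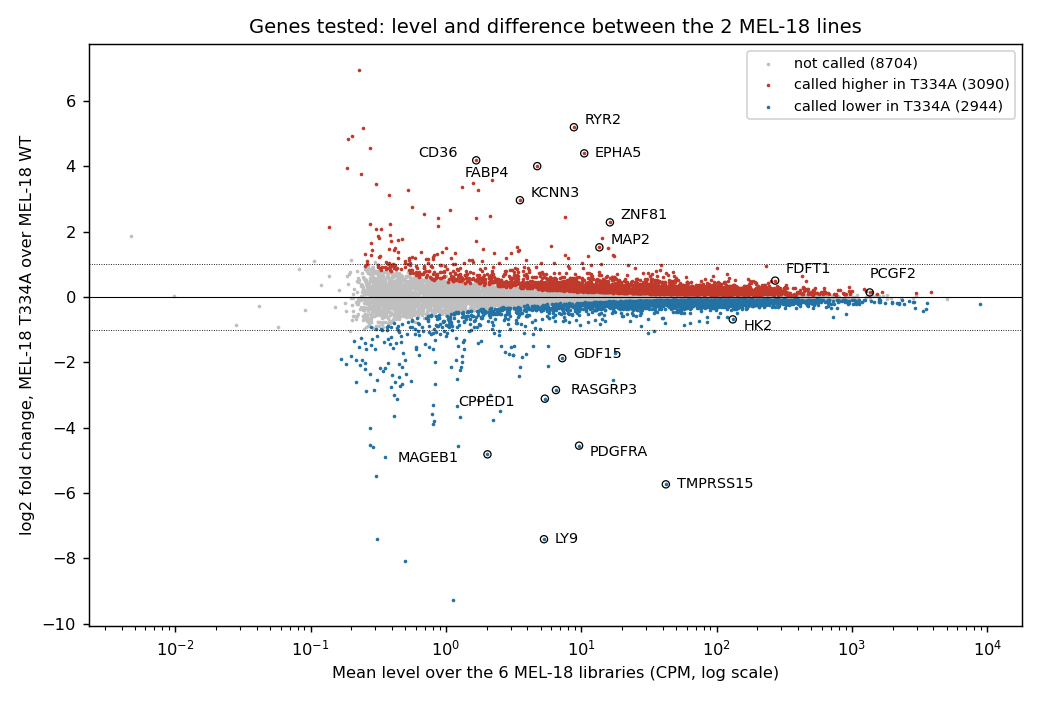
Each point is 1 of the 14738 tested genes. The x axis is its mean level over the 6 MEL-18 libraries in CPM on a log scale, and the y axis is the log2 fold change of T334A over WT, with dotted lines at 2-fold. Red genes were called higher (3090) and blue genes lower (2944) by edgeR's quasi-likelihood test, and the circled genes are named in the text.

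Genes of the Polycomb complexes themselves had small changes in RNA, as did most called genes. Of 25 tested genes for PRC1 subunits, 2 rose (8%) and 5 fell (20%), beside 21% and 20% over all genes tested. CBX7, a chromodomain subunit, rose (0.33 ± 0.055 log2) together with CSNK2B, a casein kinase subunit found in some PRC1 forms (0.12 ± 0.029 log2). PHC3, a Polyhomeotic subunit, fell (-0.24 ± 0.032 log2), as did SCML2, YAF2, USP7 and RYBP. BMI1 was not called, with 3.36, 3.77 and 3.701 CPM in WT and 3.57, 3.96 and 3.298 in T334A, nor was RNF2 (-0.055 ± 0.041 log2). Of 13 PRC2 genes, 3 rose and 2 fell, a called share of 38.5% near the 40.9% over all genes. The called PRC2 genes were PHF19 (0.29 ± 0.031 log2), PHF1 and the methyltransferase EZH2 (0.081 ± 0.031 log2) on the higher side, and MTF2 and SUZ12 on the lower side. The HOX genes, textbook Polycomb targets, had 15 of 39 members with enough counts to test. HOXB9 fell (-0.26 ± 0.056 log2), HOXB3 rose (0.27 ± 0.097 log2) and 13 were not called, a called share of 13.3%. Of 29 tested developmental transcription factors, another class of Polycomb target, 9 rose (31.0%), 3 fell (10.3%) and 17 were not called, so the called share of 41.4% was near the 40.9% over all genes. LHX6 (0.62 ± 0.12 log2) and SOX4 (0.41 ± 0.052 log2) rose most, and ISL1, at 39 counts over the WT libraries and 6 over the T334A libraries, was the lowest of those that fell (-2.59 ± 0.49 log2). Without the T334A library of replicate 2, 4 of the 29 rose. Of the PRC1 genes, 3 fell in several alternatives, DESeq2 among them. HOXB3 and YAF2 were no longer called by DESeq2 or without 1 of several libraries, and MTF2 and SUZ12 were not called once the median change of their chromosomal neighbours was taken out. EZH2 lost its call by DESeq2, with a replicate block and with that median taken out, where 2 PRC2 genes rose, PHF19 and PHF1.

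PDGFRA, the receptor for platelet-derived growth factor found on many mesenchymal cells, fell. The WT libraries held 18.9, 18.1 and 18.4 CPM, the T334A libraries 0.807, 1.02 and 0.536 and the vector libraries 4.94, 3.95 and 4.17. The groups did not overlap, with the vector between the 2 MEL-18 lines (log2 fold change -4.55 ± 0.12, adjusted p = 2.92e-21). The neurotrophin receptor NTRK2 fell from a mean of 0.380 ± 0.0624 to 0.0997 ± 0.0749 CPM (SD, n = 3), at low counts. MUSK, the receptor that organises the neuromuscular junction, went the other way, from 0.252, 0.353 and 0.361 CPM in WT to 2.95, 3.17 and 3.27 in T334A, against 0.488, 0.535 and 0.319 with the vector (log2 fold change 3.27 ± 0.20, adjusted p = 5.87e-13). Of 26 tested receptor tyrosine kinases, 12 rose (46.2%, beside 21% over all genes tested), 3 fell and 11 were not called. Their median was 0.080 log2 beside -0.0033 over all genes tested. Of the 26, 2 lie on chromosome 7, where 56.4% of the tested genes rose. The smaller rises took in ERBB3, the neuregulin receptor (0.62 ± 0.082 log2), KDR, a receptor for vascular endothelial growth factor (0.59 ± 0.17 log2), ERBB4 (0.56 ± 0.22 log2), FGFR3, FGFR1 (0.38 ± 0.032 log2), EGFR (0.30 ± 0.027 log2), PDGFRB, DDR1, LTK, MET and TYRO3. IGF1R was the third member that fell (-0.12 ± 0.029 log2). NRG1, the ligand of ERBB3 and ERBB4, rose as well, from 37.4, 39.1 and 38.1 CPM in WT to 59.02, 59.3 and 59.3 in T334A (log2 fold change 0.63 ± 0.040, adjusted p = 1.22e-12), and the groups did not overlap.

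Ephrin receptors, which read ligands on neighbouring cells and guide cell position, were split. EPHA5 stood near its vector level in WT, with 0.895, 0.977 and 0.963 CPM against 0.610, 0.684 and 0.733, and at 21.8, 19.9 and 18.6 CPM in T334A (log2 fold change 4.40 ± 0.10, adjusted p = 7.05e-22). EPHA7 rose less, by 0.84 ± 0.12 log2. EPHA3 fell, from 0.587, 0.760 and 0.692 CPM in WT to 0.186, 0.0566 and 0.0564 in T334A (log2 fold change -2.76 ± 0.40, adjusted p = 4.05e-06). Of the 16 tested receptors and ephrins of this family, 8 rose (50%) and 3 fell, and with the neighbours' median taken out 5 rose. Over all genes tested 21% rose and 20% fell. Among the 28 tested growth factors that bind receptor tyrosine kinases the split was nearly even. NRG1, NTF3, BTC, PDGFA, VEGFB, CSF1 and GAS6 rose, while FGF1 (-0.92 ± 0.17 log2), EREG (-0.62 ± 0.030 log2), PDGFB (-0.42 ± 0.077 log2), ANGPTL4, FGF5, PDGFC, VEGFA, VEGFC and TGFA fell. BTC was not called by DESeq2.

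Both of the large changes among regulators of RAS, the switch below these receptors, were decreases in exchange factors that load RAS with GTP. RASGRP3, a calcium- and diacylglycerol-responsive exchange factor, stood at 11.6, 10.6 and 12.04 CPM in WT, and at 1.58, 1.47 and 1.69 in T334A, near the 1.74, 1.52 and 1.82 of the vector (log2 fold change -2.85 ± 0.10, adjusted p = 9.47e-18 for T334A against WT). RASGRF1, a calmodulin-dependent exchange factor, had 5.73, 6.35 and 5.96 CPM in WT and 6.34, 5.26 and 4.88 with the vector, but 1.86, 1.81 and 1.72 in T334A (log2 fold change -1.74 ± 0.12, adjusted p = 8.67e-12). So the T334A line was the one apart for RASGRF1, and the WT line for RASGRP3. The feedback genes of the ERK pathway moved less. DUSP4 (0.50 ± 0.037 log2), DUSP9 (0.62 ± 0.098 log2), SPRY4 (0.28 ± 0.039 log2), ETV4 (0.28 ± 0.036 log2) and DUSP6 (0.088 ± 0.033 log2) rose, whereas SPRED2 and ETV5 fell. In all, 13 rose (40.6%), 7 fell (21.9%) and 12 were not called, of 32 tested, beside 21% higher and 20% lower over all genes tested. With the median change of the members' chromosomal neighbours taken out 9 rose and 3 fell.

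Immediate early genes, the transcription factors and phosphatases induced within minutes by growth factors or stress, fell more often than they rose. Of 25 tested, 11 fell (44%), 3 rose and 11 were not called, beside 20% lower and 21% higher over all genes tested. The largest was FOSB, with 4.698, 5.54 and 4.15 CPM in WT and 1.58, 1.13 and 1.55 in T334A (log2 fold change -1.76 ± 0.25, adjusted p = 3.03e-06), although its vector libraries spread from 6.21 to 13.8. FOS itself was steadier. It had 53.6, 53.5 and 50.5 CPM in WT, 30.04, 28.9 and 32.8 in T334A and 64.8, 56.3 and 56.2 with the vector, without overlap (log2 fold change -0.78 ± 0.051, adjusted p = 3.57e-12). EGR1 (-0.68 ± 0.046 log2) and DUSP1, which dephosphorylates stress kinases (-0.41 ± 0.039 log2), fell, with JUNB, NR4A1, NR4A2, ZFP36 and IER2 also lower. KLF2 (0.40 ± 0.063 log2) and FOSL1 (0.25 ± 0.042 log2) rose. JUN was not called.

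**Figure D2:**
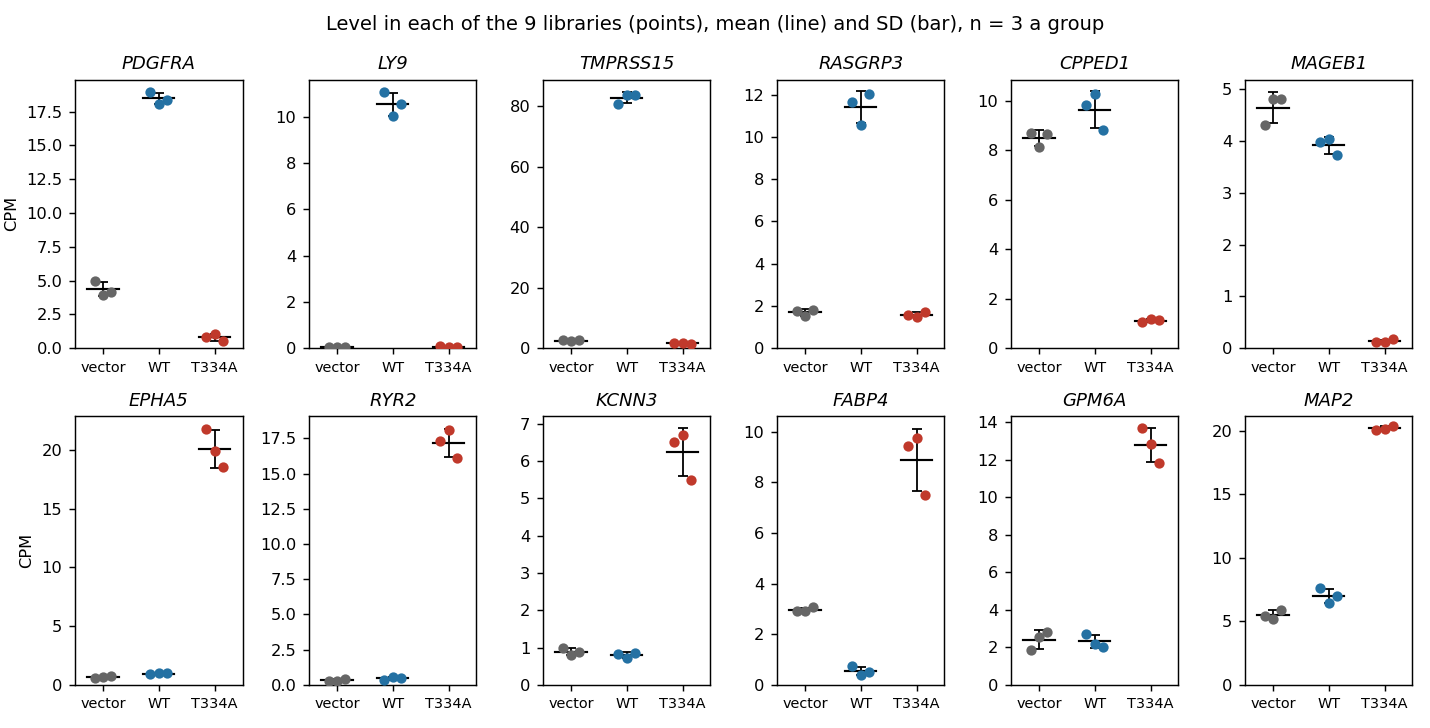
Level in CPM (y axis, a separate linear scale for each gene) of 12 genes in each of the 9 libraries, by line. Points are libraries, the horizontal line is the mean and the bar the SD of 3. The upper 6 genes are lower in T334A than in WT and the lower 6 are higher, with no overlap between the 2 MEL-18 lines.

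Genes of excitable cells made up several of the largest increases. RYR2, a channel that lets calcium out of intracellular stores and is best known from the heart, was at 0.364, 0.543 and 0.481 CPM in WT and 0.275, 0.297 and 0.446 with the vector, and at 17.3, 18.1 and 16.1 in T334A. That is a rise of 5.20 ± 0.13 log2 (adjusted p = 7.27e-22). KCNN3, a calcium-activated potassium channel, rose from 0.839, 0.706 and 0.843 to 6.52, 6.705 and 5.497 CPM (log2 fold change 2.97 ± 0.14, adjusted p = 3.41e-15), and the related KCNN4 and KCNMA1 rose by 0.58 ± 0.056 log2 and 0.93 ± 0.24 log2. Of 39 tested voltage-gated and calcium-release channels, 14 rose (35.9%), among them SCN2A, CACNA1I, CACNA1H and SCN9A, and 6 fell (3 without the WT library of replicate 2), of which KCNK6 had the lowest value (-0.44 ± 0.15 log2). Over all genes tested 21% rose and 20% fell.

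The membrane glycoprotein GPM6A, abundant in neurons, had 2.71, 2.199 and 2.02 CPM in WT and 13.7, 12.8 and 11.8 in T334A (log2 fold change 2.46 ± 0.11, adjusted p = 6.44e-16). MAP2, which binds dendritic microtubules, rose from 7.58, 6.46 and 7.01 to 20.04, 20.1 and 20.4 CPM, and the 3 T334A libraries hardly differed among themselves (log2 fold change 1.52 ± 0.065, adjusted p = 3.75e-16). The cell adhesion proteins CDH18 (3.59 ± 0.19 log2), CNTNAP2 (0.92 ± 0.12 log2) and L1CAM (0.70 ± 0.071 log2) rose too, as did CSMD3 (2.495 ± 0.18 log2) and GFAP, the intermediate filament of astrocytes (1.52 ± 0.16 log2). ANKS1B, a synaptic scaffold, fell by 1.51 ± 0.15 log2 and the cadherin CDH12 fell by 1.73 ± 0.14 log2. Among 44 tested genes of neuronal adhesion, cytoskeleton and synapse, 20 rose (45.5%) and 8 fell, beside 21% and 20% over all genes tested. Of the 44, 5 lie on chromosome 7, where 56.4% of the tested genes rose. Of the 8 neuron markers, 7 stayed under 1 CPM in every library, STMN2, GAP43, DCX and NEFM among them, and the eighth, SYT1, had 5.82, 5.48 and 5.96 CPM in WT, 8.28, 7.81 and 7.89 in T334A and 7.84, 8.15 and 8.57 with the vector. The 8 markers summed to 5.81 to 6.26 CPM in WT and 8.09 to 9.00 in T334A, and their part in these changes was not tested.

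Some genes were present in 1 MEL-18 line and all but absent from the other. LY9, a lymphocyte adhesion receptor of the SLAM family, had 11.05, 10.04 and 10.5 CPM in WT and at most 0.0931 CPM in any T334A or vector library. Its sums were 1115 counts over the WT libraries and 6 over the T334A libraries. The 8 leukocyte markers summed to 53.7 to 58.6 CPM in WT and 50.02 to 54.7 in T334A, nearly all of it CD68, and CD3E was at or near 0. TMPRSS15, the intestinal protease that activates trypsinogen, was likewise high in WT, at 80.6, 83.8 and 83.7 CPM against 1.58, 1.75 and 1.32 in T334A and 2.71, 2.23 and 2.58 with the vector (log2 fold change -5.73 ± 0.067, adjusted p = 1.36e-29). ANKRD30A, a breast differentiation antigen (-3.76 ± 0.21 log2), FAAH, the hydrolase of the endocannabinoid anandamide (-3.49 ± 0.17 log2), and ITM2A (-1.78 ± 0.12 log2) followed the same order, with WT highest. MAGEB1 and CPPED1 were the reverse case, since WT and vector lay near each other and T334A was low. MAGEB1, a cancer-testis antigen, had 3.97, 4.04 and 3.73 CPM in WT, 4.300, 4.82 and 4.81 with the vector and 0.124, 0.113 and 0.169 in T334A, and CPPED1, a protein phosphatase, fell by 3.11 ± 0.11 log2. In bulk RNA a lower level in each cell and fewer cells with the transcript cannot be told apart.

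The genes of the next sentences were picked out after their values were seen. SERP2, RLBP1 and TMEM196 had 238, 105 and 66 counts over the 3 WT libraries and none over the 3 T334A libraries. Taken against a floor of 3 counts over the T334A libraries, SERP2 was at least 77.2-fold lower in T334A, RLBP1 at least 34.1-fold and TMEM196 at least 21.4-fold. GREM1, a secreted antagonist of bone morphogenetic proteins, had no count in the WT libraries, 46 in T334A and 9 with the vector, so it was at least 15.7-fold higher in T334A than in WT on the same floor. PRDM9, a meiotic histone methyltransferase, had 1 count in WT and 49 in T334A, a ratio of 50.3 with an exact 95% counting interval from 8.62 to 2028. On chromosome 17 the skeletal myosin heavy chain genes MYH13, MYH8, MYH4, MYH1 and MYH2, neighbours in 1 cluster, all fell, while the 8 muscle markers summed to less than 1 CPM in every library. MYH13 was the best counted, with 3.13, 3.28 and 2.86 CPM in WT, 3.08, 2.91 and 2.804 with the vector and 0.465, 0.198 and 0.395 in T334A (log2 fold change -3.13 ± 0.20, adjusted p = 2.01e-12), and the others had 47 to 84 counts in WT and 7 to 15 in T334A. MYHAS, an RNA from the opposite strand of this cluster, fell by 3.31 ± 0.31 log2, and whether the counting used strand is not given in the sources used here. MYH3, the embryonic myosin, fell by 0.40 ± 0.082 log2.

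Cancer-testis antigens, genes normally restricted to germ cells, were mostly too low to test, with 13 of 49 passing the filter. Of these, 6 fell (46.2%) and 1 rose (7.69%), beside 20% and 21% over all genes tested. MAGEA1 fell from 2.32, 2.44 and 2.35 CPM in WT to 0.279, 0 and 0.282 in T334A (log2 fold change -3.66 ± 0.31, adjusted p = 6.19e-10) and MAGEB2 from 48.9, 45.1 and 45.6 to 22.9, 22.1 and 23.1 (log2 fold change -1.04 ± 0.043, adjusted p = 1.68e-16), while PIWIL1, an Argonaute protein of the germ line, rose by 1.11 ± 0.18 log2. Members of the MAGE family are alike in sequence, so counts may be divided between them. The zinc finger genes ZNF81 (2.29 ± 0.065 log2) and ZNF28 (1.43 ± 0.12 log2) rose, and ZNF28 was lower in WT, at 1.54, 2.01 and 2.05 CPM, than in T334A, at 5.15, 5.403 and 4.57, or with the vector, at 5.28, 5.23 and 5.67. RFPL4A and its near copy RFPL4AL1 rose by 1.498 ± 0.066 log2 and 1.55 ± 0.10 log2, with the same reservation on shared reads. Among the 17 tested members of the SLAM family and lymphocyte receptor list, the ligands of the checkpoint receptor PD-1, CD274 (-0.63 ± 0.040 log2) and PDCD1LG2 (-0.62 ± 0.13 log2), fell with LY9, and TNFSF10, the death ligand TRAIL, rose by 0.91 ± 0.17 log2.

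**Figure D3:**
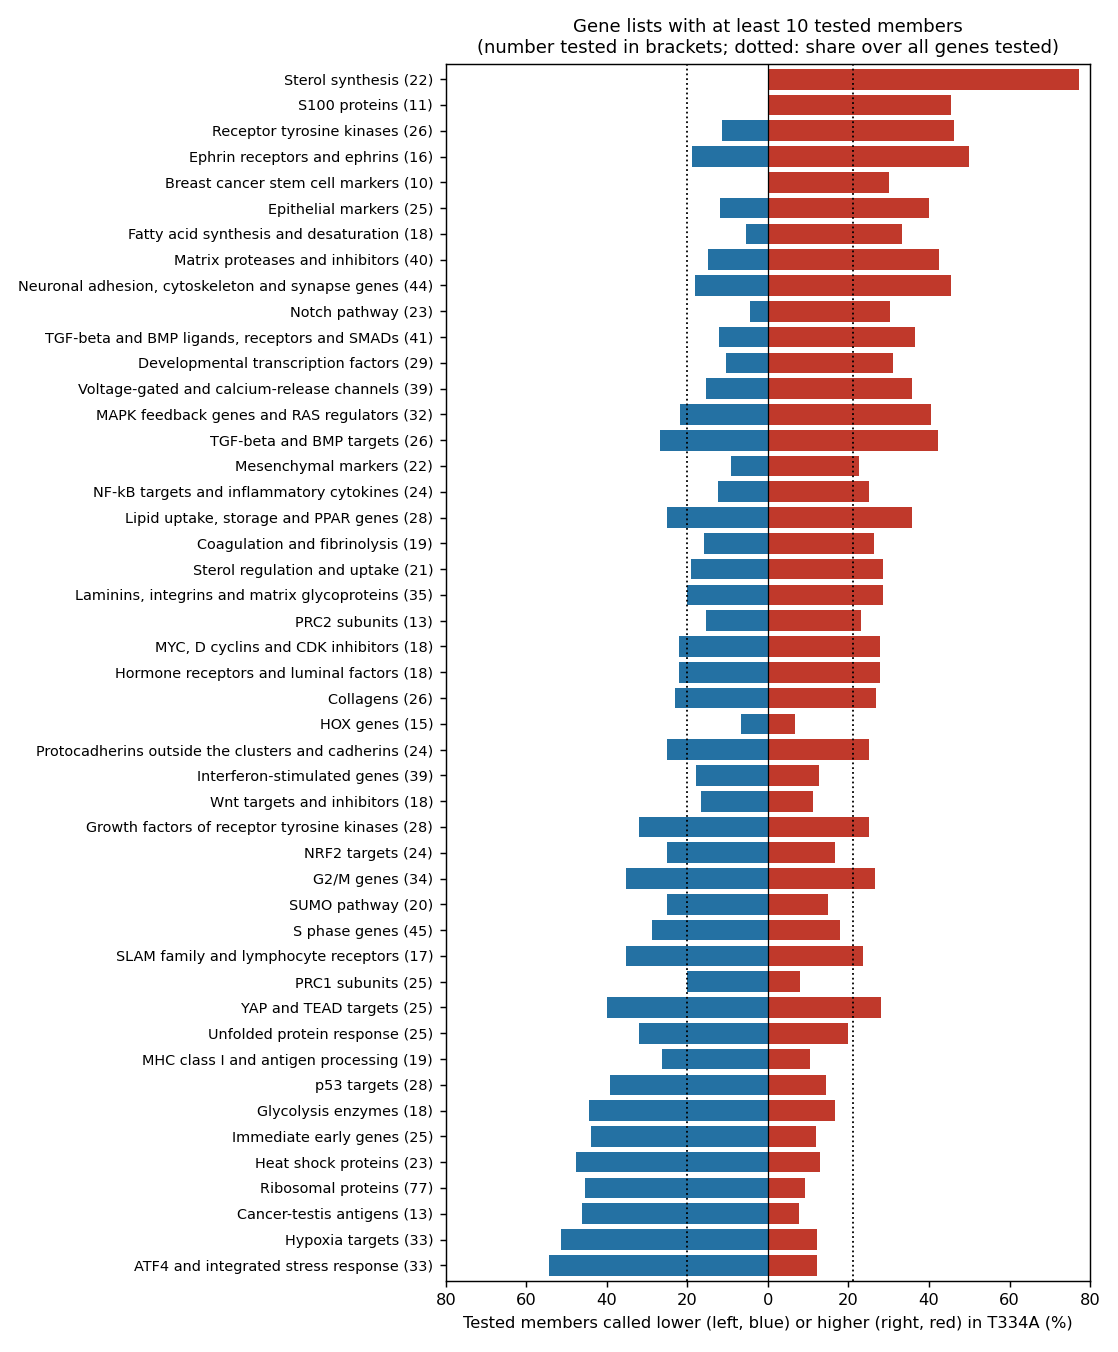
Share of the tested members called, for each gene list with at least 10 tested members, higher (red, right) or lower (blue, left) in T334A, in percent on the x axis, with the number tested in brackets. Dotted lines mark the shares over all tested genes, 21% higher and 20% lower. Sterol synthesis stands at the top with 77.3% higher and none lower, and the ATF4 list at the bottom with 54.5% lower.

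Genes of cholesterol synthesis rose together, by small amounts. Of the 22 tested enzymes, 17 rose (77.3%), none fell and 5 were not called, with a median of 0.19 on the log2 scale. Over all genes tested 21% rose and 20% fell. FDFT1, squalene synthase, the first committed step toward sterols, had 229, 224 and 219 CPM in WT, 314, 325 and 314 in T334A and 296, 297 and 301 with the vector (log2 fold change 0.51 ± 0.028, adjusted p = 9.69e-14). WT was therefore the low line for this gene. GGPS1, which makes geranylgeranyl diphosphate, rose by 0.49 ± 0.059 log2 and CYP51A1, the lanosterol demethylase, by 0.31 ± 0.028 log2. SC5D, EBP, LBR and IDI1 were among those not called. In every alternative except the test against 1.5-fold, 16 to 18 members rose and none fell. SREBF2, the transcription factor that drives these enzymes, rose by 0.19 ± 0.030 log2. INSIG1 rose by 0.12 ± 0.034 log2, SREBF1 differed by -0.0061 ± 0.037 log2 without a call, and fatty acid synthase, FASN, fell by 0.10 ± 0.031 log2.

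The promoters of these enzymes are known for CCAAT boxes, which bind the factor NF-Y beside sterol regulatory elements. RefSeq promoters (GRCh38.p14, 250 bases before to 50 after the start) were at hand for 10669 of the tested genes and 17 of the 22 enzymes. The letters CCAAT on either strand were present in 12 of the 17 (70.6%), against 36.2% of the tested genes and 35.7% of all 27305 promoters. Lists described below that fell more than they rose held it often too, in 15 of 25 promoters of the ATF4 list and 13 of 26 of the hypoxia targets. The sterol regulatory element was searched as TCACNCCAC on either strand and matched none of the 17 and 1.15% of all promoters. Shown are the 150 bases before the start of 3 enzymes that rose and have the box, 5′ to 3′ along the gene. The box is in capitals (ATTGG is the box on the other strand). These 3 enzymes were not those that rose most in the list. TM7SF2 lies at chr11:65111722-65111871, plus strand. HSD17B7 lies at chr1:162790552-162790701, plus strand. MVD lies at chr16:88663092-88663241, minus strand.
TM7SF2: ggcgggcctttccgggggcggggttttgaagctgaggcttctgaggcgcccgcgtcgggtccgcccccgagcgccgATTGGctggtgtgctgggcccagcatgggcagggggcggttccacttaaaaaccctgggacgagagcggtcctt
HSD17B7: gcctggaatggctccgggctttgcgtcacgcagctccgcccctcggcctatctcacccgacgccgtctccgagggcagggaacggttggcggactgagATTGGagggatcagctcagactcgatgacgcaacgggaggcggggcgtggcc
MVD: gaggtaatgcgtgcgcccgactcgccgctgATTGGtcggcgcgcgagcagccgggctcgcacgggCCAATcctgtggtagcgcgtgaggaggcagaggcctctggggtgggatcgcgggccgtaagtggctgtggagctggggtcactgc
TM7SF2, a sterol reductase, rose by 0.30 ± 0.068 log2, HSD17B7, a keto-reductase, by 0.29 ± 0.049 log2 and MVD, mevalonate diphosphate decarboxylase, by 0.28 ± 0.037 log2.

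Hypoxia targets, the genes that the factor HIF switches on when oxygen is short, fell more often than they rose. Of 33 tested, 17 fell (51.5%), 4 rose and 12 were not called, with a median of -0.11 log2. Over all genes tested 20% fell and 21% rose. CA9, a carbonic anhydrase and a standard hypoxia marker, had 8.19, 8.41 and 8.61 CPM in WT, 3.01, 3.54 and 2.42 in T334A and 4.64, 4.61 and 6.09 with the vector, so the vector lay between (log2 fold change -1.49 ± 0.11, adjusted p = 6.32e-11). DDIT4, an inhibitor of mTORC1, fell from 43.6, 30.9 and 32.5 to 20.3, 20.1 and 17.8 CPM (log2 fold change -0.88 ± 0.094, adjusted p = 2.75e-08), and ADM, adrenomedullin, fell by 0.73 ± 0.049 log2. HK2, the hexokinase that commits glucose to glycolysis, had 155, 169.8 and 161 CPM in WT, 155, 151 and 149.6 with the vector and 101, 94.9 and 107 in T334A (log2 fold change -0.68 ± 0.038, adjusted p = 9.69e-14). PLOD2, VEGFA, PDK1, PFKFB3, SLC2A1 and BNIP3 also fell, and LOXL2 (0.49 ± 0.030 log2), BNIP3L (0.36 ± 0.032 log2), P4HA2 and PFKFB4 rose. Of the 18 glycolytic enzymes tested, 8 fell (44.4%), and after HK2 their changes were slight, such as LDHA (-0.20 ± 0.027 log2), ALDOA, PGK1 and ENO1, with HK1 rising by 0.17 ± 0.028 log2.

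The core of the hypoxia response element, ACGTG on either strand, was found in 14 of 26 hypoxia targets with a RefSeq promoter (53.8%), in 26.4% of the tested genes and in 21.6% of all promoters. Among immediate early genes it was in 9 of 21 (42.9%). For the 3 targets with the core that fell most, the 150 bases before the start are shown, again 5′ to 3′ along the gene, with the core in capitals (CACGT is the core on the other strand). CA9 lies at chr9:35673778-35673927, plus strand. DDIT4 lies at chr10:72273774-72273923, plus strand. HK2 lies at chr2:74833977-74834126, plus strand.
CA9: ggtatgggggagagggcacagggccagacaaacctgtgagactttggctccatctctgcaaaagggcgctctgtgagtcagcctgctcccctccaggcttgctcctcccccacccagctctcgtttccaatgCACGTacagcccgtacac
DDIT4: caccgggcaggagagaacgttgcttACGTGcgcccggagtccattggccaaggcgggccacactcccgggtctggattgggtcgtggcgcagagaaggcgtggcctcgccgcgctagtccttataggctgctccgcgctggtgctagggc
HK2: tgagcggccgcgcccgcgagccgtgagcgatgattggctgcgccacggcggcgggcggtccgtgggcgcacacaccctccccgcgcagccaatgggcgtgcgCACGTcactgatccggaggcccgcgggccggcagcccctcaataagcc
These letters are a description of the promoters, and no binding was measured here.

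Genes of the integrated stress response, which ATF4 induces when amino acids are short or proteins misfold, had the largest lower share of the lists with at least 10 tested members. Of 33 tested, 18 fell (54.5%), 4 rose and 11 were not called, beside 20% lower and 21% higher over all genes tested. GDF15, a stress-induced cytokine, had 13.1, 10.1 and 10.9 CPM in WT, 3.26, 3.82 and 2.26 in T334A and 8.27, 8.56 and 9.91 with the vector (log2 fold change -1.87 ± 0.12, adjusted p = 3.44e-12). NUPR1 (-1.52 ± 0.29 log2), CTH, which makes cysteine (-0.52 ± 0.085 log2), DDIT3, the factor CHOP (-0.31 ± 0.10 log2), SESN2 and the transporters SLC7A1, SLC7A5 and SLC7A11 fell. ATF4 itself differed by -0.071 ± 0.031 log2 without a call, and ASNS by -0.012 ± 0.046 log2. ALDH1L2 rose (0.80 ± 0.16 log2), with GARS, SLC6A9 and PSPH. DDIT4 and GDF15 count in more than 1 list, the latter also among p53 targets, where 11 of 28 fell (39.3%) and 4 rose. CDKN1A, the best known p53 target, was not called (-0.067 ± 0.053 log2), and MDA-MB-231 carries a mutant p53.

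Heat shock proteins were lower in 11 of 23 tested (47.8%) and higher in 3. The abundant chaperones HSPA8, with 3889, 4139.9 and 4009 CPM in WT and 3044, 2927 and 3315 in T334A (log2 fold change -0.37 ± 0.037, adjusted p = 9.07e-09), and HSP90AA1 (-0.33 ± 0.037 log2) fell, with CHORDC1, DNAJA1, HSPD1 and HSPE1. HSPB1 and BAG3 rose, and the inducible HSPA1A and HSPA1B were not called. Of 25 tested genes of the unfolded protein response of the endoplasmic reticulum, 8 fell (32%) and 5 rose (20%), beside 20% and 21% over all genes tested. Without the T334A library of replicate 2, 5 fell. With the neighbours' median taken out 1 rose. Genes for ribosomal proteins fell in 35 of 77 (45.5%), with a median of -0.072 log2 over the list, and rose in 7. This count rested on single libraries, since 18 fell without the WT library of replicate 2 and 17 without the T334A library of replicate 1, and none rose with the neighbours' median taken out.

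**Figure D4:**
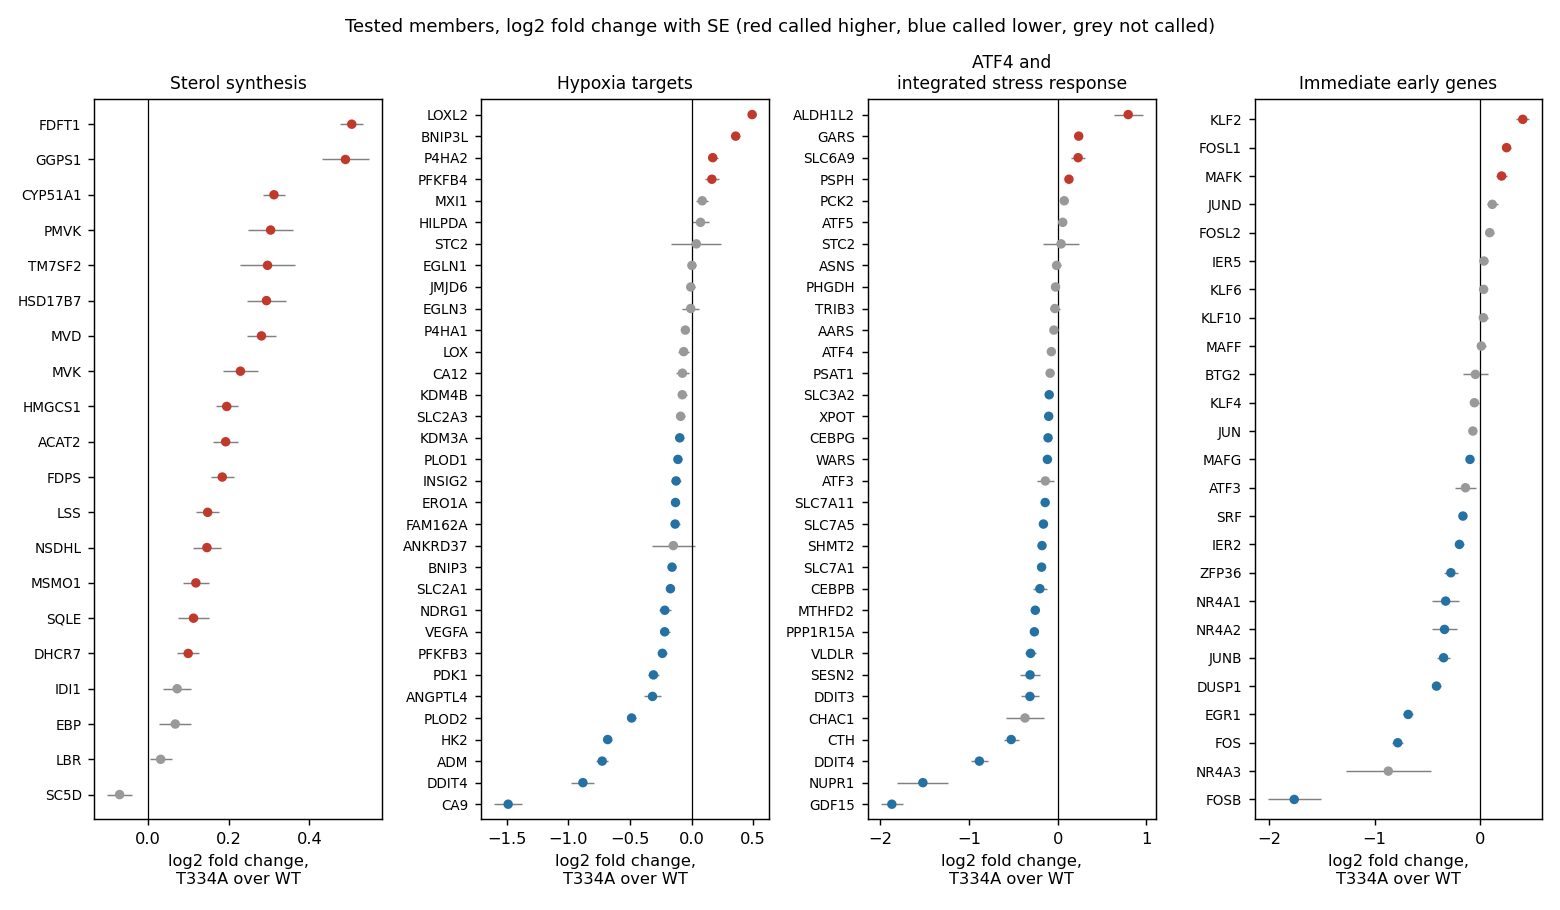
log2 fold change of T334A over WT (x axis) with its SE for tested members of 4 lists, ordered by change, with 2 members of the sterol list left out. Red points were called higher, blue lower and grey not called. Sterol synthesis enzymes lie almost wholly right of 0, whereas hypoxia, ATF4 and immediate early genes have long lower tails led by CA9, GDF15 and FOSB.

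Lipid handling had 2 of the largest increases. FABP4, the fatty acid carrier of fat cells, was at 0.727, 0.407 and 0.511 CPM in WT, 2.897, 2.91 and 3.06 with the vector and 9.43, 9.76 and 7.499 in T334A (log2 fold change 4.01 ± 0.16, adjusted p = 5.89e-17). CD36, a scavenger receptor that imports fatty acids, had 18 counts over the WT libraries and 326 over the T334A libraries, or 0.0839, 0.109 and 0.331 and 3.35, 3.28 and 2.88 CPM. PPARG, the nuclear receptor that induces both, rose by 0.31 ± 0.035 log2. These are 3 of the 8 adipocyte markers, whose sum was 69.8 to 71.2 CPM in WT and 92.6 to 102.9 in T334A. The other 5 stayed under 1 CPM in every library, and ADIPOQ, the adipocyte hormone, was at 0 throughout, and the part of these markers in the other changes was not tested. Of 28 tested genes of lipid uptake, storage and PPAR signalling, 10 rose (35.7%) and 7 fell (25%), beside 21% and 20% over all genes tested. ACSL1, PLIN2 and FABP6 were among those that fell. PDK4, another PPAR target, rose (0.42 ± 0.11 log2), its libraries overlapped between the lines, and it was not called once its neighbours' median was taken out.

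In the TGF-beta family, ligands, antagonists and targets shifted in both directions. BMP2 fell (-1.72 ± 0.35 log2), and INHBA, the activin A subunit (1.05 ± 0.18 log2), INHBB (0.79 ± 0.040 log2), NODAL (0.98 ± 0.22 log2), the latent binding protein LTBP3 (0.66 ± 0.061 log2) and the activin antagonist FST (0.46 ± 0.042 log2) rose. Of 41 tested ligands, receptors and SMADs, 15 rose (36.6%) and 5 fell, beside 21% and 20% over all genes tested. Of 26 tested target genes, 11 rose (42.3%) and 7 fell, and 3 fell without the WT library of replicate 2 and 4 with the neighbours' median taken out. ID4, an inhibitor of bHLH factors, had 25.3, 24.5 and 29.1 CPM in WT, 27.1, 26.1 and 24.9 with the vector and 54.5, 52.9 and 48.5 in T334A (log2 fold change 0.98 ± 0.052, adjusted p = 3.68e-14). PMEPA1, a feedback inhibitor of the pathway, rose from 7.58, 7.33 and 6.65 to 14.1, 13.6 and 12.7 CPM, and TGFBI from 35.9, 34.01 and 36.8 to 59.3, 64.3 and 57.1. For both, the vector was the lowest line, at 5.31, 4.85 and 4.53 and 24.1, 25.04 and 24.2 CPM. SMAD7 (0.56 ± 0.10 log2) and ID1 (0.48 ± 0.046 log2) rose as well, while CTGF and TAGLN were not called and CYR61 fell (-0.22 ± 0.031 log2). In the Notch pathway 7 of 23 rose and 1 fell, with JAG2 (0.43 ± 0.10 log2), HES4 and HES2 the largest of those that rose. Among 18 tested Wnt targets and inhibitors 2 rose and 3 fell. The called shares were 34.8% for Notch and 27.8% for Wnt, beside 40.9% over all genes tested.

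Matrix genes followed no single direction. COL4A5 and COL4A6, basement membrane collagen chains from a shared promoter region on the X chromosome, fell, COL4A5 from 9.201, 8.93 and 9.42 CPM in WT to 1.86, 2.29 and 2.23 in T334A (log2 fold change -2.10 ± 0.096, adjusted p = 1.25e-15) and COL4A6 with a change of -2.61 ± 0.37 log2. COL13A1, a transmembrane collagen, rose from 159.6, 153 and 163 to 316, 324 and 286 CPM with the vector between, at 208, 205 and 208 (log2 fold change 0.96 ± 0.036, adjusted p = 1.67e-17), and COL6A3 rose by 0.85 ± 0.22 log2. The laminin chain LAMA4 fell (-0.74 ± 0.063 log2) and the integrin ITGB4 rose (0.65 ± 0.052 log2). Of 40 tested matrix proteases and inhibitors, 17 rose (42.5%) and 6 fell, beside 21% and 20% over all genes tested. The salivary cystatins CST1, with 6.29, 6.596 and 5.84 CPM in WT and 24.2, 20.3 and 21.8 in T334A, and CST4 (1.42 ± 0.12 log2) rose most, with the reservation that these neighbouring genes are near copies. TIMP4 (0.99 ± 0.080 log2), ADAM8 (0.64 ± 0.067 log2), LOXL1 (0.60 ± 0.077 log2), MMP16, CTSB, LOXL2 and PLAU rose, and ADAMTS1 (-0.74 ± 0.11 log2), LOXL4, TIMP2 and TIMP3 fell. Of the coagulation genes, F13A1, a clotting factor subunit, rose by 1.26 ± 0.075 log2, and F3, tissue factor, fell from 878, 901 and 861 to 565, 528 and 647 CPM (log2 fold change -0.60 ± 0.044, adjusted p = 2.54e-11).

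Epithelial markers rose in 10 of 25 tested and fell in 3. KRT81, a hair keratin, had 3.66, 3.07 and 3.22 CPM in WT, 6.98, 7.61 and 5.86 in T334A and 6.53, 7.43 and 7.62 with the vector (log2 fold change 1.04 ± 0.11, adjusted p = 2.07e-08), and the tight junction claudins CLDN7 (0.59 ± 0.096 log2) and CLDN4 (0.50 ± 0.068 log2), CRB3, KRT7 and EPCAM (0.28 ± 0.065 log2) rose. KRT18, KRT8 and CLDN1 fell. Mesenchymal markers rose in 5 of 22 and fell in 2, with TCF4 (0.90 ± 0.049 log2) and CDH11 (0.57 ± 0.046 log2) rising. Over all tested genes 21% rose and 20% fell, so the share of mesenchymal markers that rose (22.7%) lay at the background and that of epithelial markers (40%) above it. Of the 25 epithelial markers, 2 lie on chromosome 7, where 56.4% of the tested genes rose, and CDH1 had too few counts to test. The luminal breast markers summed to 155.9 to 163.2 CPM in WT and 171.0 to 182.9 in T334A, and their part in these changes was not tested. Most of this sum was KRT19, and of the 6 markers tested 3 rose and none fell. The wider list of hormone receptors and luminal factors was mixed, with 5 of 18 higher (27.8%) and 4 lower (22.2%). Genes of the cell cycle were divided. Of 34 tested G2/M genes 9 rose (26.5%) and 12 fell (35.3%), and of 45 S phase genes 8 rose (17.8%) and 13 fell (28.9%). With the neighbours' median taken out these became 3 and 6, and 5 and 7, and the S phase genes that fell were 7 without the WT library of replicate 2 and 6 without the T334A library of replicate 2. The largest S phase changes were POLA2 (0.34 ± 0.048 log2) and POLA1 (-0.32 ± 0.036 log2), subunits of 1 DNA polymerase that went opposite ways.

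The many small calls were unevenly spread over the chromosomes. On chromosome 7, 394 of 698 tested genes (56.4%) rose and 12 (1.72%) fell, with a median log2 fold change of 0.19. Chromosome 18 had 51.2% higher and chromosome 10 had 39.5%, whereas chromosomes 2 and 4 had 34.7% and 34.0% lower. Chromosome 8 had 36.7% higher and 13.3% lower, and chromosome 9 had 36.2% higher and 23.9% lower. Chromosome 7 holds 4.45% of the 247 genes changed over 2-fold (11 genes) and 4.74% of all tested genes, about the same share. A gene's change was set against the median of 20 tested neighbours on each side to see which calls stood apart from their surroundings. With that median taken out 4445 genes were called, 3810 of them also called without it. The highest 10% of the neighbours' medians were at least 0.36 log2 on chromosome 8 and at least 0.26 log2 on chromosome 7. Genes named above on chromosome 8 include FDFT1, NRG1, FGFR1, DUSP4, LOXL2 and BNIP3L. Those on chromosome 7 include EGFR, MET, EZH2, CNTNAP2, CLDN4, HSPB1 and PSPH. The values given above for these genes include any shift shared with their neighbours. No DNA was measured and each group is 1 line, so a difference in gene copy number between the lines and an effect of the substitution on transcription cannot be told apart for these small shifts.

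**Figure D5:**
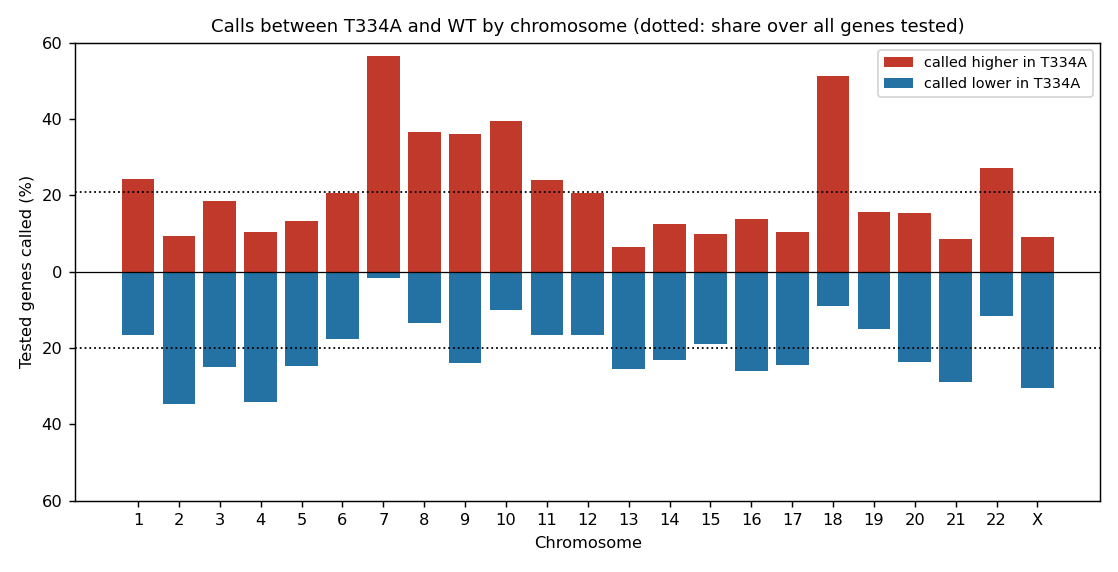
Share of the tested genes on each chromosome called higher (red, upward) or lower (blue, downward) in T334A, in percent. Dotted lines mark 21% and 20%, the shares over all tested genes. Chromosomes 7 and 18 stand out with 56.4% and 51.2% higher.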

How the data were processed

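Poly(A) RNA from cultured cells was sequenced as stranded libraries, per the labels' protocols. The authors deposited raw counts per gene for each library. Per the submitters' processing notes the tools were CASAVA 1.8, STAR 2.5.3a and featureCounts of Subread 1.5.3, with hg19 as the build. The gene annotation and the strand setting of the counting are not given in the sources. The 13 mitochondrially encoded genes looked for were not among the gene names.

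From these counts, genes were kept by filterByExpr, libraries scaled by TMM, and T334A compared with WT in edgeR 4.0.16 (R 4.3.3) by the quasi-likelihood test over all 9 libraries, without covariates. SE is the log2 fold change divided by the square root of F. DESeq2 1.42.0 and limma 3.58.1 (voom) were alternatives, with other scalings, filters, thinned counts, single libraries left out, a replicate block, a test against 1.5-fold, and the median of chromosomal neighbours removed. Chromosome and neighbour order came from RefSeq. The test was checked on simulated counts.

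Named genes were the 15 largest called changes each way with a mean of at least 2 CPM and no overlap, and up to 4 called genes from each of 49 lists, apart from members cited to describe a list and genes said to be picked after their values were seen. The members and lists were chosen with earlier results of these data known. Some genes are not reported here. Counting intervals and floors cover counting error only. Same-numbered WT and T334A libraries did not deviate together, so the numbers were not treated as pairs.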

Additional observations from a re-analysis of the deposited data

How the results depend on the processing

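The called count of 6034 lay between 4445 and 6315 in every alternative but the test against 1.5-fold, which called 187 genes because it asks for a larger change. DESeq2 called 4953, limma voom 6006, and leaving out 1 library at a time gave 4953 to 6315. The fit with a replicate block called 5757 genes, with PCGF2 at 0.14 (adjusted p = 5.36e-04). Same-numbered WT and T334A libraries had deviation correlations of 0.057, -0.067 and -0.0082, so a shared number is no evidence of a pair. Scaling by library totals alone turned the higher share of calls from 51.2% to 58.4%. The count changed over 2-fold went from 247 to 125 when at least 1 CPM in at least 3 libraries was required, a filter that leaves fewer genes tested. PCGF2 kept its direction throughout and had an adjusted p of 1.0 against 1.5-fold. Of 193 named genes, 165 remained called with the same sign in every alternative but the test against 1.5-fold, in which 58 were called, and none reversed. Of the 28 that lost the call in at least 1, 9 (MTF2, SUZ12, TCF7L2, VLDLR, PDK4, GSR, CENPA, RPA3 and PIAS2) lost it solely with the chromosomal neighbours' median taken out, where GSR went from 0.38 to 0.049 and RPA3 from 0.31 to 0.087 log2. The other 19 lost it in other alternatives, EFNA2, BTC, NKD1, OAS2, SP5 and PSMB8 among them, and the cause was not tested. Outside the same test, members that fell numbered 14 to 18 for Hypoxia targets, 14 to 21 for ATF4 and integrated stress response, 8 to 11 for Immediate early genes and 10 to 14 for Heat shock proteins. Depth limits genes under about 1 CPM, whose SEs are the widest.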
